A study of Saccharomyces cerevisiae with 6 samples.

Results

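The SEC genes of budding yeast (Saccharomyces cerevisiae) encode proteins that carry newly made proteins into the endoplasmic reticulum (ER), through the Golgi and out to the cell surface. The members were the genes numbered from SEC1 to SEC72, without SEC7 and SEC13, and a row of the FPKM table was taken when its locus tag was on that list of 34 genes. Of these, 27 had at least 1 RNA in the table, with 45 RNAs in all, out of 6962 RNAs of 4134 genes. SEC4, SEC16, SEC21, SEC28, SEC31, SEC59 and SEC61 had no row and were not analysed here.

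Each RNA of the pool carries the leader of 1 gene, the stretch of mRNA ahead of the start codon, and its name gives the locus and a number read here as the leader length in nucleotides (nt). The RNAs were synthesised with T7 RNA polymerase, capped and added to a cell-free translation extract from yeast, so no living cell was measured. A sucrose gradient then gave 3 libraries of the 80S fraction (RNA bound by a ribosome with both subunits), 2 libraries of the fraction labelled untranslated, and 1 input library of the pool itself. The label for the input pulldown lacks the biotin step that both fractions carry, so a fraction set against the input may also differ by that step. Labels do not say whether replicates came from separate extracts, and the spread that the p-values are set against may therefore be technical only. The single input library was assumed in the fits to vary like the replicated fractions.

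In the usual path of initiation, a small ribosomal subunit loads at the cap, moves along the leader to the start codon and is joined there by the large subunit, which makes an 80S ribosome. The leader is therefore the part of the mRNA that the initiating ribosome meets first, and yeast genes often have several start sites of transcription and so several leaders. The secretory pathway begins with translocation across the ER membrane. COPII coats carry vesicles forward to the Golgi, COPI coats carry them back, SNARE proteins fuse them, and the exocyst tethers vesicles from the Golgi at the plasma membrane.

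Values are FPKM, fragments scaled to RNA length and library size by the authors, which is a share of a library and not a number of molecules. They are given for each library in order of replicate, 80S before untranslated. A difference between fractions is on the log2(FPKM + 1) scale with its standard error (SE), and a positive sign means higher in 80S. The test was limma's moderated test over all 6962 RNAs with Benjamini-Hochberg adjustment, and an RNA was called at an adjusted p under 0.05. Across all RNAs, 38.6% were called higher in 80S than in untranslated RNA and 31.8% lower, so a call by itself was common in this pool. Counts of members are descriptions, and no test was run on the list or on its roles. The counts by role below are to be read beside these shares of the pool.

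Of the 45 SEC RNAs, 16 passed as higher in 80S, 17 passed as lower and 12 did not pass. Among them, 12 of the higher and 14 of the lower RNAs differed 2-fold or more. Over all 6962 RNAs, 1913 were called higher and 1638 lower at 2-fold or more. The median log2 difference of the 45 RNAs was -0.16, against 0.18 over all RNAs. Rescaling each library by median ratios brought the median of all RNAs to 0.03 and changed the direction of no called SEC RNA. From the lowest to the highest member the ratio spanned 33.4-fold. The 3 80S libraries lay wholly above both untranslated libraries for 17 SEC RNAs and wholly below for 19, and the fractions overlapped for 9. Over the pool, the libraries did not overlap for 79.5% of RNAs. By gene, 10 had an RNA higher and none lower, 13 had an RNA lower and none higher, 1 (SEC5) had RNAs in both directions, and 3 (SEC9, SEC62 and SEC66) had none past the threshold. The same sorting of all genes of the pool is not given here, so no tilt can be read from these counts.

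**Figure D1:**
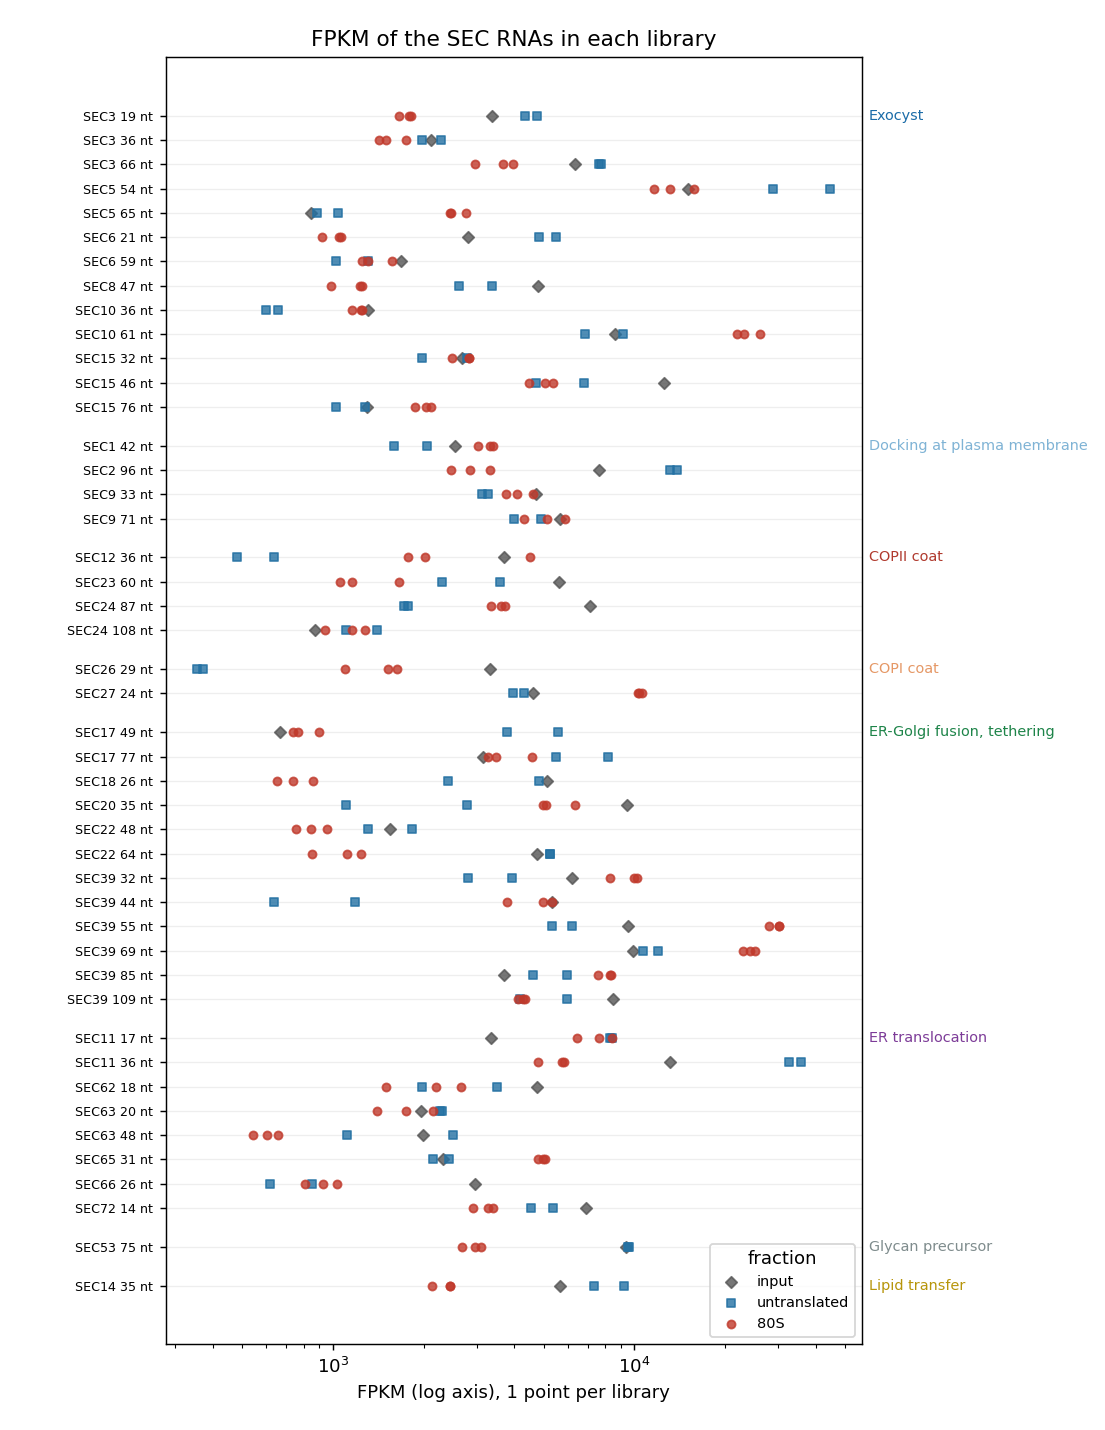
FPKM (log axis) of the 45 SEC RNAs, grouped by role, with 1 point for each library: 3 of 80S (circles), 2 of untranslated (squares) and 1 of the input (diamonds). Points of a fraction mostly lie close together, with exceptions such as SEC12 in 80S and SEC20 in untranslated RNA. Where the fractions stand apart they do so in both directions, as for SEC11 with the 36 nt leader (lower in 80S) and SEC26 with the 29 nt leader (higher in 80S). The 80S and untranslated points overlap for 9 RNAs.

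The libraries of a fraction agreed closely for these RNAs. As a description across the 45 RNAs, the log2 FPKM of 80S libraries correlated with each other at a Pearson's r of 0.974 to 0.983, and that of the untranslated libraries at 0.952. Libraries of different fractions correlated at 0.423 to 0.520. A typical SEC RNA had a replicate SD (median, log2 scale) of 0.15 in 80S and 0.23 in untranslated RNA. FPKM of the members ran from 355 to 44646, so none was near the bottom of the table. Together the SEC RNAs held 0.856% to 0.866% of the summed FPKM in 80S, 0.949% and 0.993% in untranslated RNA, and 0.804% in the input.

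Entry into the ER was represented by SEC11, SEC62, SEC63, SEC65, SEC66 and SEC72, with 8 RNAs. Calls were higher in 80S for 1, lower for 3 and absent for 4. SEC11 (YIR022W), the catalytic subunit of signal peptidase, which removes signal sequences, had the lowest 80S to untranslated ratio of all SEC RNAs with its 36 nt leader (chrIX:398697-398732, plus strand of R64). This RNA stood at 5757, 4776 and 5817 FPKM in 80S and 32646 and 35582 FPKM in untranslated RNA. The fractions were far apart, 6.28-fold (log2 -2.65, SE 0.17, adjusted p = 1.26e-05), and the input value of 13166 FPKM lay between them. The 17 nt leader of the same gene did not share this distribution. It stood at 7632, 6431 and 8422 FPKM in 80S and 8268 and 8420.4 FPKM in untranslated RNA, with overlapping libraries (log2 -0.16, 95% confidence interval -0.57 to 0.24, adjusted p = 0.428).

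Between the SEC11 leaders, the 17 nt form had the 5.61-fold higher ratio (limma on the within-library difference, log2 -2.49 for long minus short, SE 0.19, adjusted p = 3.26e-05). Such tests were run for every pair of leaders of a gene, 3811 pairs in all, of which 68.9% were called at an adjusted p under 0.05. In 80S the 17 nt leader held 57.8% ± 1.14 (SD, n = 3) of the FPKM of SEC11, against 19.7% ± 0.758 (SD, n = 2) in untranslated RNA and 20.2% in the input. The minority form of the pool was thus the majority form in 80S. The 19 bases that only the 36 nt leader holds (chrIX:398697-398715, plus strand) are shown because they are all that distinguishes the RNAs by name. Here and below, sequences are reference DNA read 5′ to 3′, and capitals mark ATG triplets, of which this stretch has none.
SEC11, 19 bases present only in the 36 nt leader: ataccggaaagtaaacccc

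SEC65 (YML105C) encodes a subunit of the signal recognition particle, which takes nascent secretory proteins to the ER. It was the only called riser among the 8 RNAs of ER entry. Its 31 nt leader RNA stood at 5035, 4968 and 4797 FPKM in 80S and 2154 and 2419.6 FPKM in untranslated RNA. All 80S libraries lay above both untranslated libraries, 2.16-fold on average (log2 1.11, SE 0.17, adjusted p = 0.000541).

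SEC62 (YPL094C), SEC63 (YOR254C), SEC66 (YBR171W) and SEC72 (YLR292C) belong to the complex that brings completed proteins to the ER membrane channel. SEC63, a membrane protein with a J domain that recruits the chaperone Kar2, had 2 RNAs. The 48 nt leader RNA stood at 603, 541 and 659 FPKM in 80S and 2507 and 1111 FPKM in untranslated RNA, lower in 80S (log2 -1.48, SE 0.34, adjusted p = 0.00443). Its untranslated replicates differed widely, and the log2 difference was -0.89 without untranslated replicate 1 and -2.06 without replicate 2. Here and below, a fit without 1 untranslated library leaves that fraction with 1 library. The spread of the fraction is then not in the adjusted p, so calls kept, gained or lost in such fits are descriptions only. The 20 nt leader RNA stood at 2144, 1397 and 1744 FPKM in 80S and 2304 and 2269 FPKM in untranslated RNA and did not pass (log2 -0.40, adjusted p = 0.147). The pair passed as a difference of -1.08 (adjusted p = 0.0266). That call was lost in limma without any 1 of the 80S libraries or without untranslated replicate 1, with adjusted p between 0.051 and 0.113. The bases that only the long form holds (chrXV:807044-807071, minus strand) are shown.
SEC63, 28 bases present only in the 48 nt leader: caaagaaggccttcgcaacaaaataaat

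SEC72, a cytosolic peripheral component, had the shortest leader of the members, 14 nt, and stood at 2917, 3391 and 3273 FPKM in 80S and 4527 and 5381 FPKM in untranslated RNA. It was lower in 80S (log2 -0.63, SE 0.18, adjusted p = 0.0124), with a call lost without 80S replicate 1 (log2 -0.57, limma, adjusted p = 0.0596, range over the alternatives 0.00581 to 0.0596). SEC62 (18 nt) and SEC66 (26 nt) had overlapping libraries and did not pass, at log2 -0.36 and 0.34. Without untranslated replicate 2, SEC62 passed as lower (log2 -0.77, limma, adjusted p = 0.0286, range over the alternatives 0.0286 to 0.868).

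Of the COPII genes, SEC12, SEC23 and SEC24 had 4 RNAs, of which 2 were higher in 80S, 1 was lower and 1 did not pass. SEC12 (YNR026C), the membrane protein that loads the GTPase Sar1 with GTP and so starts coat assembly, was the third highest of all members. Its 36 nt leader RNA (chrXIV:674690-674725, minus strand) stood at 4508, 1772 and 2014 FPKM in 80S and 637 and 482 FPKM in untranslated RNA. Every 80S value exceeded both untranslated values, 4.55-fold on average (log2 2.19, SE 0.39, adjusted p = 0.00121), but 80S replicate 1 stood well above the others. Without it the log2 difference was 1.77 (limma, adjusted p = 0.00122, range over the alternatives 5.41e-05 to 0.00164). The 30 bases next to the start codon are shown as those of a high member, with the base at the third position upstream also in capitals, since an A there is typical of yeast start sites.
SEC12, 30 bases next to the start codon: ataacaaggttgagatacaatcgagccAct

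SEC23 (YPR181C) activates GTP hydrolysis by Sar1, and SEC24 (YIL109C) binds cargo in the same inner coat. The SEC23 RNA (60 nt) stood at 1152, 1054 and 1661 FPKM in 80S and 3574 and 2291 FPKM in untranslated RNA, 2.26-fold lower in 80S (log2 -1.18, SE 0.28, adjusted p = 0.0052). SEC24 with the 87 nt leader went the other way, at 3612, 3723 and 3337 FPKM in 80S and 1772 and 1722 FPKM in untranslated RNA, 2.03-fold higher (log2 1.02, SE 0.17, adjusted p = 0.000853). The 108 nt leader of SEC24 stood at 1158, 1275 and 941 FPKM in 80S and 1103 and 1400.4 FPKM in untranslated RNA, and its libraries overlapped (log2 -0.16, 95% confidence interval -0.69 to 0.38). The leaders of SEC24 differed in their 80S to untranslated ratio by 2.27-fold in favour of the shorter (log2 -1.18, SE 0.22, limma, adjusted p = 0.00211). Set against the single input library, both fractions instead favoured the longer (long minus short, log2 1.36 for 80S and 2.54 for untranslated). By share of the gene's FPKM, the 108 nt form rose from 10.9% of the input to means of 23.9% (80S) and 41.6% (untranslated). The added 21 bases at the 5′ end of the long form (chrIX:160253-160273, minus strand) are given below.
SEC24, 21 bases present only in the 108 nt leader: aggaaacaggccaaaaatagc

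Both COPI genes with an RNA were higher in 80S. SEC26 (YDR238C) encodes the beta subunit and SEC27 (YGL137W) the beta-prime subunit of the coat that returns vesicles from the Golgi to the ER. SEC26 (29 nt) stood at 1627, 1099 and 1520.2 FPKM in 80S and 372 and 355 FPKM in untranslated RNA, 3.84-fold higher (log2 1.94, SE 0.24, adjusted p = 0.000169). Its untranslated values were the lowest of any SEC RNA in that fraction, while the input was 3314 FPKM. SEC27 (24 nt) stood at 10381, 10568 and 10285 FPKM in 80S and 3959 and 4312 FPKM in untranslated RNA, 2.52-fold higher (log2 1.33, SE 0.16, adjusted p = 0.000125), with replicates that nearly coincided.

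Fusion and tethering between the ER and the Golgi gave 12 RNAs of 5 genes, with 6 calls higher in 80S, 5 lower and 1 RNA that did not pass. The split ran along genes: the tether gene SEC39 and the SNARE gene SEC20 had all the higher RNAs, and SEC17, SEC18 and SEC22 had all the lower ones. SEC18 (YBR080C) encodes the ATPase known in mammals as NSF, and SEC17 (YBL050W) the adaptor alpha-SNAP, which together take SNARE complexes apart. SEC18 (26 nt) stood at 736, 651 and 858 FPKM in 80S and 4822 and 2399 FPKM in untranslated RNA, 4.57-fold lower in 80S (log2 -2.19, SE 0.31, adjusted p = 0.00032). SEC17 with the 49 nt leader (chrII:125076-125124, plus strand) stood at 738, 901 and 763 FPKM in 80S and 3772 and 5569 FPKM in untranslated RNA, 5.74-fold lower (log2 -2.52, SE 0.24, adjusted p = 4.36e-05). In both cases no 80S library came near the untranslated range.

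The 77 nt leader of SEC17 stood at 3464, 4587 and 3263 FPKM in 80S and 5499.8 and 8170.4 FPKM in untranslated RNA and was also lower in 80S, by less (log2 -0.85, SE 0.24, adjusted p = 0.0121). Its ratio was 3.19-fold that of the 49 nt leader (log2 1.68 for long minus short, SE 0.20, limma, adjusted p = 0.000239). The short form made up 17.6% ± 1.27 (SD, n = 3) of SEC17 FPKM in 80S, 40.6% ± 0.107 (SD, n = 2) in untranslated RNA and 17.6% in the input, so the shift away from the input lay in the untranslated fraction. The stretch that separates the leaders (chrII:125048-125075) and the end of the leader that they share (chrII:125095-125124), as the second lowest member, are shown.
SEC17, 28 bases present only in the 77 nt leader: gaagcagtttatctgaactaacttctgt
SEC17, 30 bases next to the start codon: agaacaccatcattaacctgaaagttaAaa

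SEC22 (YLR268W) and SEC20 (YDR498C) encode SNARE proteins of the traffic between ER and Golgi. SEC22 with the 64 nt leader stood at 1109, 852 and 1239 FPKM in 80S and 5254 and 5256 FPKM in untranslated RNA, 4.98-fold lower in 80S (log2 -2.32, SE 0.21, adjusted p = 4.08e-05). With the 48 nt leader it stood at 846, 756 and 953 FPKM in 80S and 1834 and 1311 FPKM in untranslated RNA, also lower (log2 -0.87, SE 0.23, adjusted p = 0.0101). The 64 nt leader had the 2.73-fold lower ratio of the pair (log2 -1.45, SE 0.23, limma, adjusted p = 0.000897). The 16 bases that it adds (chrXII:680136-680151, plus strand) contain no ATG.
SEC22, 16 bases present only in the 64 nt leader: attacccaaaaccaac

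SEC20 (35 nt) was higher in 80S, at 5083, 4958 and 6372 FPKM in 80S and 2782 and 1100.5 FPKM in untranslated RNA (log2 1.63, SE 0.35, adjusted p = 0.00343). The untranslated replicates again decided the size: the log2 difference was 2.30 without untranslated replicate 1 and 0.97 without replicate 2. Both fractions lay below the input value of 9464 FPKM.

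SEC39 (YLR440C), a component of the Dsl1 complex that tethers returning vesicles at the ER, had 6 RNAs, the most of any member. In the whole table, 2 genes had 6. The RNAs share their 3′ end by name and extend to 32, 44, 55, 69, 85 and 109 nt (chrXII:1017698-1017806, minus strand). The 80S to untranslated ratio was highest at 44 and 55 nt and was lower at each longer leader. The 44 nt RNA stood at 4957, 3779 and 5336 FPKM in 80S and 1186 and 639 FPKM in untranslated RNA (log2 2.41, SE 0.29, adjusted p = 0.000142) and the 55 nt RNA at 30121, 30244 and 28046 FPKM in 80S and 5331 and 6219 FPKM in untranslated RNA (log2 2.35, SE 0.16, adjusted p = 1.33e-05). These were the highest ratios among the SEC RNAs, 5.33-fold and 5.11-fold, although the 55 nt RNA was far more abundant in both fractions.

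The 32 nt RNA stood at 9972, 8309 and 10216 FPKM in 80S and 3914 and 2807 FPKM in untranslated RNA (log2 1.51, SE 0.20, adjusted p = 0.000259). The 69 nt RNA stood at 24156, 25213 and 22991 FPKM in 80S and 10684 and 11958 FPKM in untranslated RNA (log2 1.09, SE 0.15, adjusted p = 0.000304). Both were above untranslated RNA in every 80S library. For 85 nt the values were 8276, 8378 and 7554 FPKM in 80S and 4619.7 and 5975 FPKM in untranslated RNA (log2 0.62, SE 0.18, adjusted p = 0.0142), a call that was lost without 80S replicate 1 (log2 0.60, limma, adjusted p = 0.0573), without untranslated replicate 1 (0.43, adjusted p = 0.0678) and after median-ratio rescaling (0.47, adjusted p = 0.0525). Over all its alternatives the adjusted p ran from 0.00302 to 0.0678. At 109 nt they were 4098, 4324 and 4269 and 5978 and 4168 FPKM, with overlapping libraries and no call (log2 -0.24, adjusted p = 0.303). Without untranslated replicate 2 this RNA passed as lower in 80S (-0.50, limma, adjusted p = 0.0402, range over the alternatives 0.0402 to 0.931).

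Of the 15 pairs among the SEC39 leaders, 12 were called. The neighbours 44 and 55 nt did not differ beyond their spread (log2 -0.06 for long minus short, 95% confidence interval -0.91 to 0.79), nor did 69 and 85 nt at the threshold (-0.47, -0.93 to -0.02, limma, adjusted p = 0.0596) or 32 and 69 nt (-0.42, -1.04 to 0.20). From 55 to 69 nt the ratio was 2.40-fold lower (log2 -1.26, SE 0.18, limma, adjusted p = 0.000613), and between 44 and 109 nt the difference reached 6.28-fold (log2 -2.65, SE 0.25, adjusted p = 7.44e-05). From 32 to 44 nt it was 1.87-fold higher (log2 0.90, adjusted p = 0.00702). The step from 85 to 109 nt was called (-0.86, limma, adjusted p = 0.0283) but was lost without any 1 of the 80S libraries or without untranslated replicate 1, with adjusted p between 0.0629 and 0.132. The pair of 32 and 55 nt (0.84) lost its call in limma without 80S replicate 1 or 2 or untranslated replicate 1 (adjusted p between 0.057 and 0.12). The pair of 32 and 85 nt (-0.90) lost it without 80S replicate 1 or 3 or untranslated replicate 2 (between 0.0695 and 0.124), and the pair of 44 and 69 nt (-1.32) without 80S replicate 3 (adjusted p = 0.0504). Without untranslated replicate 1, the pairs of 69 and 85 nt and of 32 and 69 nt passed (-0.58 and -0.74, limma, adjusted p = 0.0421 and 0.0315). The difference between 44 and 85 nt, -1.80, was -2.43 without untranslated replicate 1 and -1.16 without replicate 2.

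The pieces of leader added at the called steps between neighbouring lengths are shown, with the end that all 6 RNAs share. None of the leaders holds an ATG ahead of the start codon.
SEC39, 30 bases next to the start codon: tgataggttgccaagaaaattgcagtaAaa
SEC39, 12 bases added from 32 to 44 nt: atatcagagagt
SEC39, 14 bases added from 55 to 69 nt: aattgtaaatagac
SEC39, 24 bases added from 85 to 109 nt: aaggtgcagagaaaaagaaaaact

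In positions, these are chrXII:1017698-1017727, chrXII:1017730-1017741, chrXII:1017753-1017766 and chrXII:1017783-1017806 on the minus strand of R64. The computed folding energy of the leader alone (ViennaRNA) went from -0.9 kcal/mol at 32 nt to -3.1, -7.3, -9.2, -9.9 and -13.5 kcal/mol with rising length, so more pairing was computed for longer leaders. The ratio rose over the first step and not over the later ones. In 80S the 55 nt form held 36.8% ± 0.967 (SD, n = 3) of the FPKM of SEC39, against 18.2% ± 1.96 (SD, n = 2) in untranslated RNA, while the 109 nt form held 5.29% ± 0.229 and 16.0% ± 4.05.

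**Figure D2:**
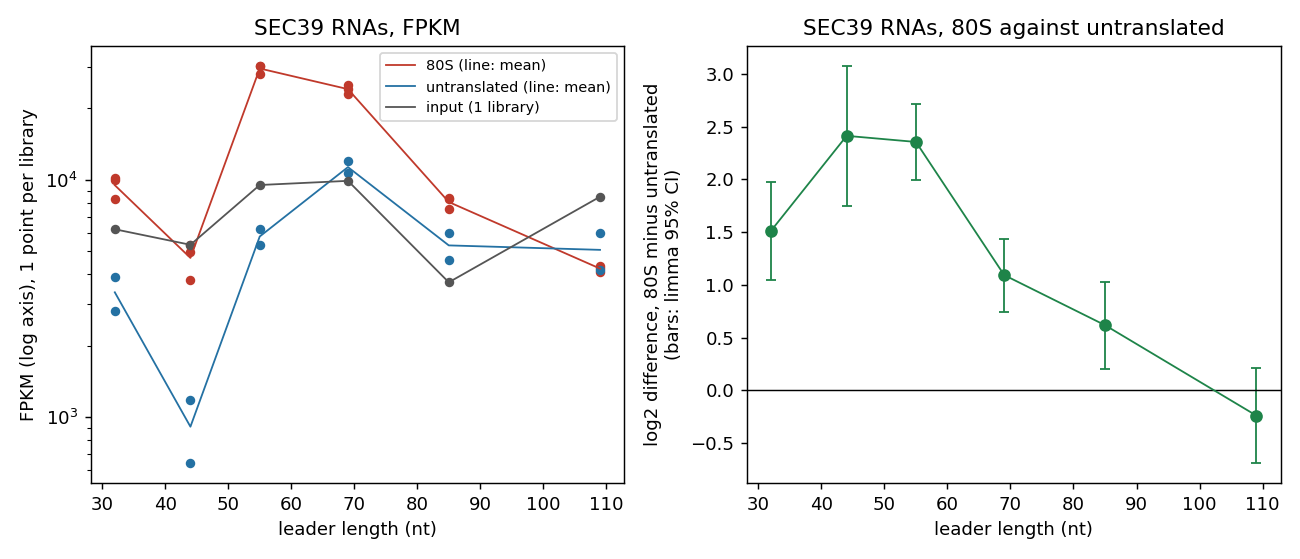
SEC39 RNAs by leader length (nt). Left, FPKM (log axis) in each library, with lines through the mean of a fraction. Right, the log2 difference of 80S minus untranslated with limma's 95% confidence interval, which stands at 2.41 and 2.35 at 44 and 55 nt and at -0.24 at 109 nt.

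Delivery to the plasma membrane begins with SEC2 (YNL272C), which activates the Rab GTPase of secretory vesicles, and ends with SEC9 (YGR009C), a SNARE of the plasma membrane, and SEC1 (YDR164C), which binds the assembled SNAREs. The 4 RNAs of these genes comprised 1 higher in 80S, 1 lower and 2 that did not pass. SEC2 (96 nt) stood at 2854, 2461 and 3321 FPKM in 80S and 13834 and 13076 FPKM in untranslated RNA, 4.71-fold lower in 80S (log2 -2.23, SE 0.18, adjusted p = 2.57e-05). SEC1 (42 nt) was higher in 80S by less than 2-fold, at 3396, 3016 and 3328 FPKM in 80S and 2046 and 1593 FPKM in untranslated RNA (log2 0.84, SE 0.19, adjusted p = 0.00467), and its fractions did not overlap. Both leaders of SEC9, 33 and 71 nt, were near balance at log2 0.37 and 0.20. The SEC9 pair did not pass (log2 -0.17, 95% confidence interval -0.62 to 0.29), an interval that does not reach a 2-fold difference.

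The exocyst, the tether of vesicles at the plasma membrane, had 13 RNAs of 6 genes, with 4 calls higher in 80S, 5 lower and 4 RNAs that did not pass. Calls thus went in both directions, as in the pool, where 38.6% of RNAs were called higher in 80S and 31.8% lower. SEC10 (YLR166C) had both RNAs higher in 80S, SEC8 (YPR055W) its single RNA lower, and SEC3 (YER008C) 2 of 3 lower. SEC5 and SEC6 had leaders that behaved differently from each other.

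For SEC5 (YDR166C), 11 bases separated RNAs with opposite calls. In the reference the 65 nt leader begins with T after a G, whereas a pyrimidine (C or T) precedes 44 of the 45 SEC leaders. The 54 nt leader RNA stood at 13168, 11612 and 15796 FPKM in 80S and 44646 and 28770.5 FPKM in untranslated RNA, 2.67-fold lower in 80S (log2 -1.42, SE 0.23, adjusted p = 0.000662). The 65 nt leader RNA stood at 2463, 2450.2 and 2769 FPKM in 80S and 883 and 1036 FPKM in untranslated RNA, 2.67-fold higher (log2 1.42, SE 0.20, adjusted p = 0.000322). No library of a fraction overlapped the other fraction for either RNA. The long leader had a 7.13-fold higher ratio, the largest difference among the 30 pairs of SEC leaders (log2 2.83, SE 0.30, limma, adjusted p = 0.000143). Its share of SEC5 FPKM was 16.0% ± 1.28 (SD, n = 3) in 80S, 2.71% ± 1.09 (SD, n = 2) in untranslated RNA and 5.28% in the input, so the 54 nt form was the more abundant throughout. The treatment of reads that fit both RNAs is not given in the sources used here, and reads assigned to the wrong leader would move such differences.

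In SEC6 (YIL068C) the short leader was the low one. With 21 nt (chrIX:235475-235495, minus strand) it stood at 917, 1046 and 1060.0 FPKM in 80S and 5509 and 4817 FPKM in untranslated RNA, 5.12-fold lower in 80S (log2 -2.36, SE 0.19, adjusted p = 2.33e-05). With 59 nt it stood at 1250.1, 1573 and 1303 FPKM in 80S and 1025 and 1302 FPKM in untranslated RNA, where the fractions overlapped and no call was made (log2 0.24, 95% confidence interval -0.26 to 0.75). The long leader had a 6.06-fold higher ratio (log2 2.60, SE 0.23, limma, adjusted p = 6.53e-05). The bases at which the SEC5 and SEC6 leaders differ are shown with the whole 21 nt leader of SEC6, for which the first 30 of the 38 added bases are given. They lie at chrIV:789276-789286, chrIX:235504-235533 and chrIX:235475-235495, all on minus strands.
SEC5, 11 bases present only in the 65 nt leader: ttaaagctgct
SEC6, first 30 bases present only in the 59 nt leader: aggaaaagaagtaaaattgggccgagagca
SEC6, the 21 nt leader: atcaagtatctagttactAag

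SEC10 with the 61 nt leader was among the more abundant SEC RNAs, at 21849, 26198 and 23139 FPKM in 80S and 6862 and 9191 FPKM in untranslated RNA, 2.98-fold higher in 80S (log2 1.57, SE 0.18, adjusted p = 0.000122). With the 36 nt leader SEC10 stood at 1152, 1234 and 1248 FPKM in 80S and 659 and 599 FPKM in untranslated RNA, higher by less than 2-fold (log2 0.95, SE 0.20, adjusted p = 0.00322). The ratios of the SEC10 leaders were not told apart at the threshold (log2 0.63 for long minus short, limma, adjusted p = 0.0675, 95% confidence interval 0.01 to 1.25). The pair passed without untranslated replicate 2 (0.91, limma, adjusted p = 0.0188) and without the mean-variance trend (0.63, limma, adjusted p = 0.0448), and its adjusted p over the alternatives was 0.0188 to 0.31. The 61 nt leader opens with an ATG that is followed by a stop codon in its frame within the leader, and the 25 added bases (chrXII:498081-498105, minus strand) are shown for that reason.
SEC10, 25 bases present only in the 61 nt leader: ATGcattaaagggatatagaaaatt

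SEC8 (47 nt) stood at 1247, 984 and 1227 FPKM in 80S and 3370.3 and 2621 FPKM in untranslated RNA, 2.59-fold lower in 80S (log2 -1.37, SE 0.21, adjusted p = 0.000591). Of the SEC3 RNAs, the 19 nt leader stood at 1653, 1792 and 1812 FPKM in 80S and 4327 and 4745 FPKM in untranslated RNA (log2 -1.37, SE 0.18, adjusted p = 0.000205) and the 66 nt leader at 3651, 3963 and 2967 FPKM in 80S and 7648 and 7754 FPKM in untranslated RNA (log2 -1.14, SE 0.19, adjusted p = 0.000756). Between them in length, the 36 nt leader stood at 1417, 1499 and 1740.2 FPKM in 80S and 1973 and 2280.0 FPKM in untranslated RNA and did not pass (log2 -0.46, adjusted p = 0.0691). It passed as lower after median-ratio rescaling (-0.60, limma, adjusted p = 0.0287, range over the alternatives 0.0287 to 0.208). Its ratio was 1.89-fold that of the 19 nt leader (log2 0.92, SE 0.19, limma, adjusted p = 0.00364). The difference between 66 and 36 nt (-0.68, limma, adjusted p = 0.0465) lost its call without any 1 of the 80S libraries or without untranslated replicate 1, with adjusted p between 0.0544 and 0.141. It also lost it with the replicate number as a block (adjusted p = 0.138). The bases by which the 36 nt leader exceeds the 19 nt leader lie at chrV:171838-171854 on the minus strand.
SEC3, 17 bases added from 19 to 36 nt: agctaggtaacaaggct

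SEC15 (YGL233W), the exocyst subunit that binds the vesicle Rab, had RNAs with 32, 46 and 76 nt. The 76 nt RNA was higher in 80S at 2028, 1869.6 and 2108 FPKM in 80S and 1272 and 1026 FPKM in untranslated RNA (log2 0.81, SE 0.20, adjusted p = 0.00699), and the others did not pass, at log2 0.21 and -0.20. The ratio at 76 nt was 2.01-fold that at 46 nt, where the RNA stood at 5356, 4479 and 5049 FPKM in 80S and 6811 and 4729 FPKM in untranslated RNA (log2 difference 1.00, SE 0.20, limma, adjusted p = 0.00313). The pairs with 32 nt did not pass, though 32 and 46 nt did without untranslated replicate 2 (-0.91, limma, adjusted p = 0.00988) and 32 and 76 nt without untranslated replicate 1 (1.00, adjusted p = 0.00464). Between 46 and 76 nt the longer leader was the one with more 80S relative to untranslated RNA. The 30 bases that set it apart lie at chrVII:59046-59075 on the plus strand.
SEC15, 30 bases present only in the 76 nt leader: aattaatacctttaacgagcgtaaaatagt

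SEC53 and SEC14 act beside the vesicle machinery. SEC53 (YFL045C), the phosphomannomutase that makes a sugar precursor of protein glycans, had its 75 nt leader RNA at 3090.2, 2678 and 2947 FPKM in 80S and 9622 and 9497 FPKM in untranslated RNA, 3.29-fold lower in 80S (log2 -1.72, SE 0.16, adjusted p = 4.57e-05). SEC14 (YMR079W), a transfer protein for phosphatidylinositol and phosphatidylcholine at the Golgi, had its 35 nt leader RNA at 2137, 2449 and 2452 FPKM in 80S and 9208 and 7353 FPKM in untranslated RNA, 3.51-fold lower (log2 -1.81, SE 0.18, adjusted p = 6.22e-05). Fractions were fully separate for both genes.

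**Figure D3:**
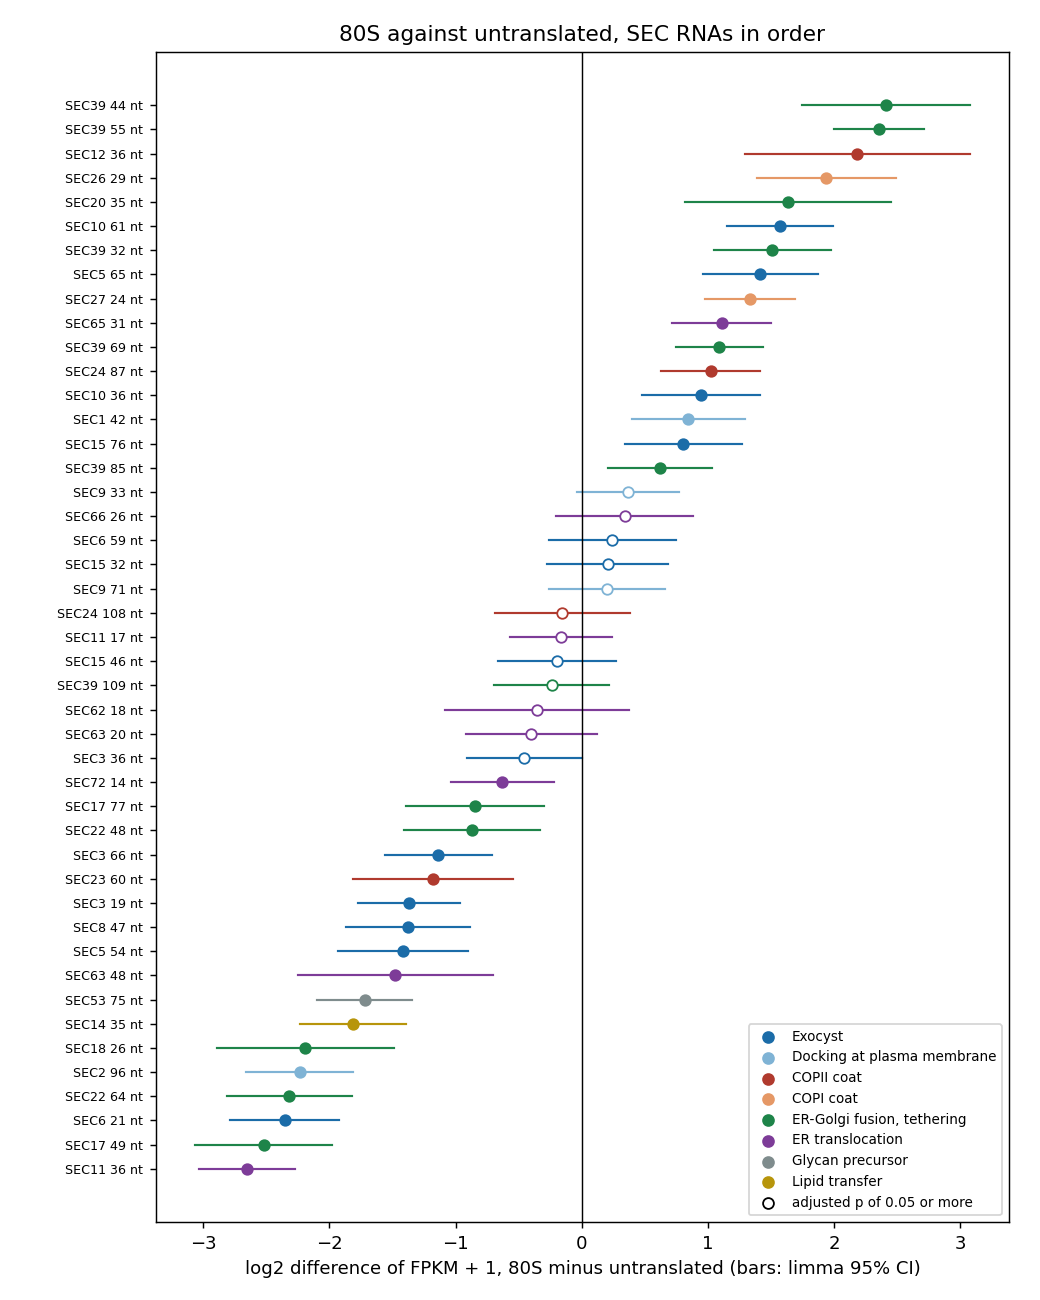
The 45 SEC RNAs in order of the log2 difference of 80S minus untranslated, with limma's 95% confidence interval as bars and colours for roles. Filled points passed an adjusted p of 0.05. Roles are interleaved, from SEC39 with 44 nt at 2.41 to SEC11 with 36 nt at -2.65.

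Set side by side by role, the median log2 difference was -0.20 for the exocyst (13 RNAs), 0.29 for docking and fusion at the plasma membrane (4 RNAs), 0.43 for COPII (4 RNAs), 1.64 for COPI (2 RNAs), 0.19 for ER and Golgi fusion (12 RNAs) and -0.38 for ER entry (8 RNAs). Within most roles the range was wider than these medians: it ran from -2.36 to 1.57 in the exocyst and from -2.52 to 2.41 in ER and Golgi fusion. COPI was the exception, with RNAs at 1.33 and 1.94. Leaders of 1 gene count more than once here. With FPKM summed over the leaders of each gene, 9 of the 27 SEC genes were higher in 80S, 14 lower and 4 had no call. In that fit of 4134 genes, 38.3% were higher and 31.9% lower.

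Of the 30 pairs of SEC leaders, from 12 genes, 22 were called, which is close to the share in the pool given above (68.9%). The called pairs favoured the longer leader in 7 cases and the shorter in 15, of which SEC39 alone gave 2 and 10. Among all pairs, 34.2% were called for the longer leader and 34.8% for the shorter. With only the longest and the shortest leader of each gene, 8 of 12 SEC pairs passed, beside 68.5% of all such pairs. The median size of a pair difference was 1.04 on the log2 scale, against 1.12 over all pairs. With SEC39 set aside the directions were mixed: the longer leader was favoured in SEC5, SEC6, SEC15 (76 against 46 nt), SEC17 and SEC3 (36 against 19 nt), and the shorter in SEC11, SEC22, SEC24, SEC63 and SEC3 (66 against 36 nt).

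**Figure D4:**
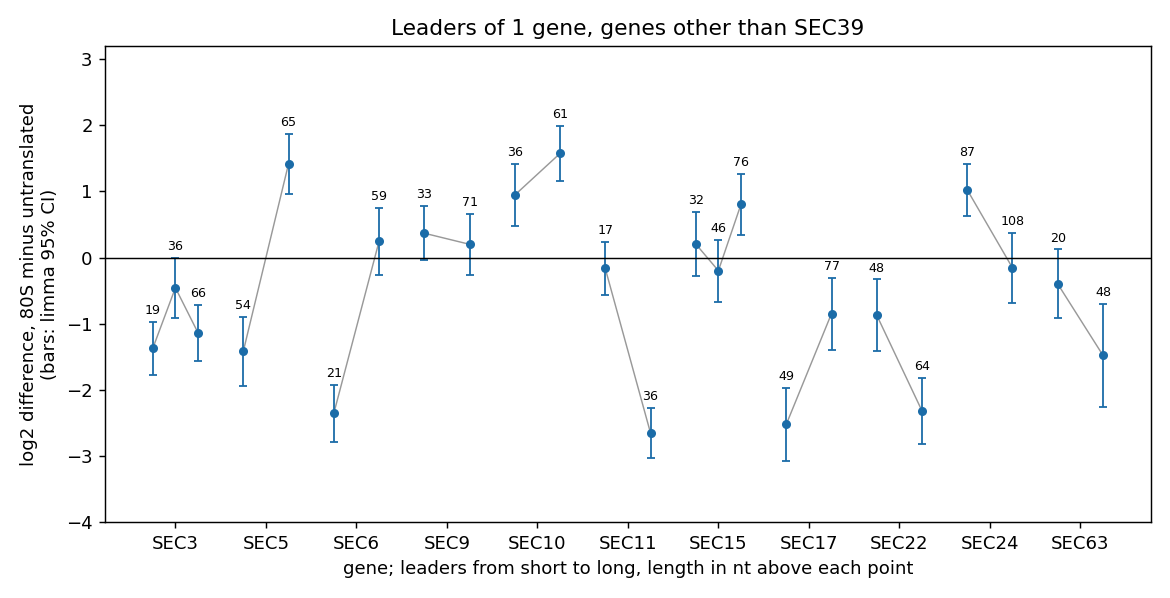
The log2 difference of 80S minus untranslated for the leaders of each SEC gene with several RNAs other than SEC39, from short to long, with the length in nt above each point and limma's 95% confidence interval as bars. In SEC5, SEC6 and SEC17 the line climbs with length, in SEC11, SEC22, SEC24 and SEC63 it descends.

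Against the input, 8 SEC RNAs were higher in 80S and 20 were lower, where 20.1% and 33.2% of all RNAs were called. In the untranslated fraction 7 were higher than in the input and 11 lower, where the pool had 17.4% and 34.4%. After median-ratio rescaling the latter split was 11 higher and 7 lower, so its direction depended on the scaling. Rescaling shifts every RNA of a library, and the split of the pool under it is not given here. The change can therefore not be read as a trait of the SEC RNAs. The split also moved without untranslated replicate 1. These comparisons share the input library with each other, and each shares a fraction with the main comparison, so they are not further evidence for it. With FPKM summed per gene, 4 SEC genes were higher in 80S than the input and 15 lower, where 18% and 35.1% of all genes were called. For untranslated RNA these counts were 4 higher and 6 lower, where 14.8% and 35.1% of all genes were called.

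RNAs with a like ratio of 80S to untranslated RNA had different distances to the input, which are given as values with their calls in limma. The input has no replicate, so its own spread is not in these calls. SEC39 with 55 nt was above the input in 80S (log2 1.63, adjusted p = 0.000531) and below it in untranslated RNA (-0.72, adjusted p = 0.0199). The latter call was lost after rescaling (-0.34, adjusted p = 0.247) and without 80S replicate 1 (adjusted p = 0.0547). SEC39 with 44 nt, which has nearly the same ratio, stood at -0.20 in 80S, which did not pass, and at -2.61 in untranslated RNA (limma, adjusted p = 0.00139).

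SEC12 was at -0.55 in 80S and -2.73 in untranslated RNA, of which the second passed. Without 80S replicate 1 its 80S value passed as lower too (-0.97, limma, adjusted p = 0.0492). SEC20 was at -0.80 and -2.43, and its 80S value did not pass in the fit of all libraries (limma, adjusted p = 0.162). That value stayed at -0.80 without either untranslated library, since those libraries do not enter it. It passed as lower in those fits, which hold no spread of the untranslated fraction, so that call is a description only. The untranslated value of SEC20 was -3.10 without untranslated replicate 1 and -1.77 without replicate 2. SEC27, SEC65, SEC10 with 61 nt and SEC5 with 65 nt were higher than the input in 80S by log2 1.18, 1.09, 1.45 and 1.60, and did not pass in untranslated RNA.

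Of the RNAs low in 80S, SEC17 with 49 nt did not pass against the input in 80S (0.25) and was 2.77 above it in untranslated RNA (limma, adjusted p = 0.000635). SEC11 with 36 nt, SEC2 and SEC6 with 21 nt were below the input in 80S (log2 -1.28, -1.41 and -1.48) and above it in untranslated RNA (1.37, 0.82 and 0.87), all called in limma. The call of SEC2 in untranslated RNA was lost without 80S replicate 1 (adjusted p = 0.0541). SEC18 (-2.79), SEC22 with 64 nt (-2.18), SEC23 (-2.16) and SEC8 (-2.06) were lower than the input in 80S, and their untranslated values did not pass. Without untranslated replicate 1, the untranslated values of SEC18, SEC23 and SEC8 passed as lower (-1.10, -1.30 and -0.86, limma, adjusted p = 0.00919, 0.00499 and 0.0253).

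A further 5 RNAs were lower than the input in both fractions: SEC26, SEC66, SEC24 with 87 nt, SEC15 with 46 nt and SEC39 with 109 nt. The untranslated value of SEC39 with 109 nt (-0.77, limma, adjusted p = 0.0401) lost its call after rescaling (-0.38, adjusted p = 0.260), without any 1 of the 80S libraries and without untranslated replicate 2. SEC66 stood at 1032, 807 and 929 FPKM in 80S and 850.3 and 617 FPKM in untranslated RNA and at 2967 FPKM in the input. For SEC26 the distances to the input were log2 -1.25 in 80S and -3.19 in untranslated RNA. SEC11 with 17 nt was alone among the SEC RNAs in passing as higher than the input in both, by 1.16 and 1.32. Fractions of the gradient other than 80S and untranslated were not analysed here.

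**Figure D5:**
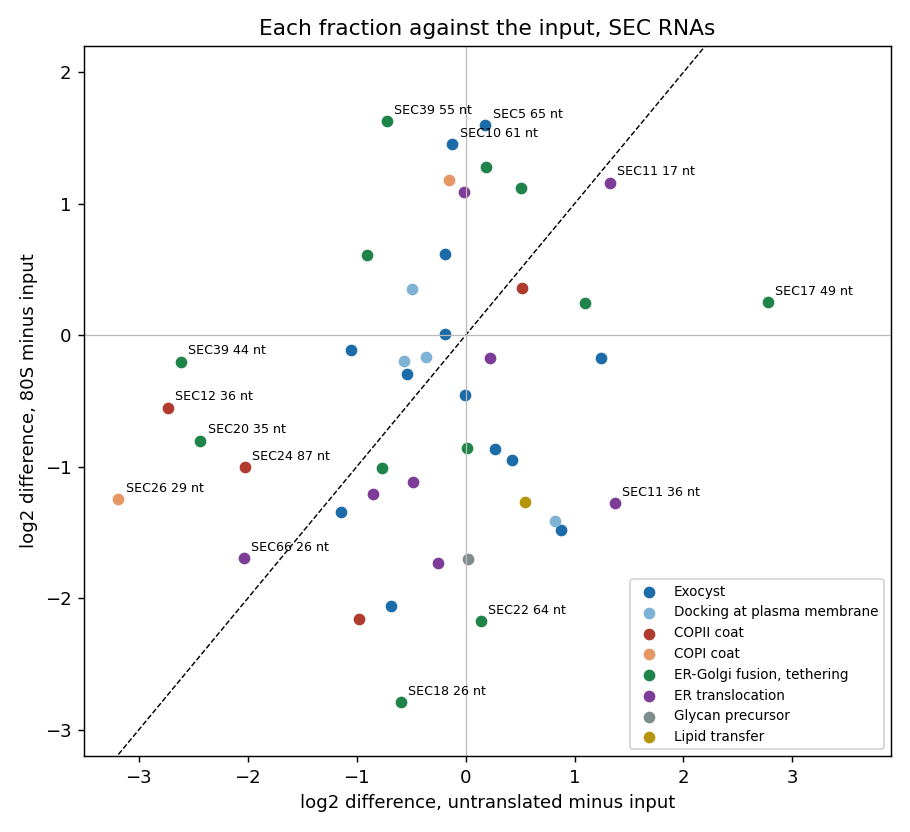
The log2 difference from the input for the untranslated fraction (horizontal) and for 80S (vertical), 1 point for each of the 45 SEC RNAs, coloured by role. The dashed line marks equal values, so distance above it is the 80S to untranslated ratio. Both axes contain the same input library. SEC26 with 29 nt lies lowest on the horizontal axis at -3.19, and SEC17 with 49 nt highest at 2.77.

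The reference sequence gave some measures in which the SEC leaders were close to the pool and a pair in which they were not. Their median length was 46 nt, against 45 nt in the pool, with a median of 40.0% A and 35.6% GC against 40.0% and 34.7%. The median folding energy was -3.8 and -3.1 kcal/mol. An ATG ahead of the start codon occurred in 2 of 45 RNAs (4.44%), SEC1 and SEC10 with 61 nt, both higher in 80S, and in 14.2% of the pool. An A at the third base before the start codon occurred in 24 of the 27 genes (88.9%), against 62.4% of the genes of the pool. SEC22 and SEC23 have G there, and SEC26 has C. Of these, SEC22 and SEC23 were lower in 80S and SEC26 higher.

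Across the 45 RNAs these features went weakly with the 80S to untranslated ratio, as a description without a test, since leaders of a gene share sequence and libraries. Spearman's rho was 0.23 for the share of A, -0.13 for GC, -0.15 for folding energy and -0.02 for length. Over 6855 RNAs of the pool it was 0.19, -0.27, 0.02 and -0.04. The 16 higher SEC RNAs had a median of 41.7% A and 32.5% GC and the 17 lower ones 37.5% A and 35.4% GC, while their median lengths were 43 and 48 nt.

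Other genes were taken from a list of 66 genes under the same roles, matched by gene symbol, of which 55 had an RNA, 97 in all. These totals include SFH1 (YLR321C), which its symbol brought in and which is not a gene of the pathway. In limma 33 of the 97 RNAs passed as higher in 80S and 36 as lower, beside 16 and 17 of the 45 SEC RNAs. Of all RNAs, 38.6% passed as higher and 31.8% as lower. COPII genes outside the SEC list had 2 of 4 RNAs higher and 0 lower, between SFB3 with 80 nt (log2 1.11), a relative of SEC24, and SFB2 with 14 nt (-0.22), which did not pass. ER entry had 5 of 26 higher and 14 lower. LHS1 with 28 nt, an ER chaperone, was highest there (log2 2.03), and SPC3 with 35 nt, of signal peptidase like SEC11, lowest (-3.16). Fusion and tethering had 13 of 31 higher and 11 lower, from BET5 with 65 nt (3.37), a subunit of the TRAPP tether, to SLY1 with 61 nt (-2.35), which binds SNAREs.

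The remaining roles were smaller. The exocyst subunits EXO70 and EXO84 had 0 of 4 RNAs higher and 2 lower, with EXO84 (78 nt) lowest at -1.06 and EXO70 (89 nt) highest at 0.22. Of docking genes 1 of 7 RNAs was higher and 3 lower, between SSO2 (77 nt, 0.68), a SNARE, and MSO1 (61 nt, -2.25), a partner of Sec1. The COPI subunits RET2 (25 nt, -0.47) and RET3 (65 nt, 0.53) did not pass, unlike SEC26 and SEC27. Precursor glycan synthesis had 10 of 17 RNAs higher and 2 lower, from PMI40 (44 nt, 1.60), which acts in the same mannose route as SEC53, to DPM1 (37 nt, -2.39). The RNAs listed as relatives of SEC14 had 2 of 6 higher and 4 lower, between PDR17 with 31 nt (0.92) and PDR17 with 18 nt (-1.84). The lower ones include SFH1 with 15 nt (YLR321C, -1.06), which was matched by its symbol and is not a relative of SEC14.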

How the data were processed

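The authors deposited FPKM, per the file headers, for 6962 RNAs in 6 libraries. The submitters' processing notes list cutadapt and STAR. For the FPKM program, the build and the handling of reads shared between leaders, details were not given in the sources used here. Read depth is unknown: taking the lowest input value as 1 step, 2.23% of the input column came out whole (tolerance 0.001), so whole reads were not recovered. FPKM summed to 24779700 to 28542200 per library, and no depth per RNA or counting interval can be given.

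Members were found by locus tag, and roles and gene names were assigned by hand and matched to RefSeq R64. Members and lists were chosen with earlier results of these data known. limma 3.58.1 (R 4.3.3) was fitted to log2(FPKM + 1) of all 6 libraries with 1 mean per group and a mean-variance trend (3 residual and 5.15 prior degrees of freedom), Benjamini-Hochberg adjusted over 6962 RNAs. RNAs needed a mean FPKM of 10 and an input above 0, which removed 0 RNAs. Pairs of leaders were tested alike on within-library differences over 3811 pairs. The code was tested on simulated data. Leaders are the bases upstream of the annotated start codon in R64, found for 6855 RNAs and all 45 SEC RNAs. The first base was A in 78.3% of them and the base before it a pyrimidine in 96.2%. The synthesised RNAs may differ from the reference. At most 30 bases were printed per stretch, and stretches that would adjoin one already shown were left out. Folding used ViennaRNA 2.7.2 (Python 3.11.15). Values in every library are given for SEC RNAs past the threshold at 2-fold or more without overlap and for both RNAs of called pairs. Those of SEC1, SEC66, SEC72 and SEC10 with 36 nt were added after they were seen, and the other SEC RNAs are given by counts or fitted differences. Alternatives are listed in the closing section.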

Additional observations from a re-analysis of the deposited data

How the results depend on the processing

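Other pseudocounts (10 and 0.1 FPKM), no filter, a filter at a mean FPKM of 500 and a fit without the input left the counts of called SEC RNAs and pairs as reported. No called SEC RNA, in any of the 3 comparisons, and no called pair changed direction under the alternatives run on single RNAs and pairs, although calls were lost or gained. With 1 library left out in turn, the called SEC RNAs of 80S against untranslated numbered 31 to 35 (15 to 16 higher, 16 to 19 lower), of 80S against input 26 to 31 (8 to 10 and 18 to 21) and of untranslated against input 14 to 25 (6 to 8 and 8 to 17), and called pairs 17 to 23. Median-ratio rescaling gave 15 higher and 18 lower for the first comparison and 10 and 17 for 80S against input. For untranslated against input it gave 11 and 7, where calls below the input were lost and calls above it gained. Shares over all RNAs are not given for these alternatives, so the counts show nothing particular to the SEC RNAs. Fits without 1 untranslated library hold no spread of that fraction. With FPKM summed per gene, over 27 genes in place of 45 RNAs, 80S against untranslated gave 9 higher and 14 lower, 80S against input 4 and 15, and untranslated against input 10 in all (4 and 6). With the longest and shortest leader only, 8 of 12 pairs passed. With the replicate number as a block, 33 SEC RNAs and 21 pairs were called, and without the mean-variance trend 33 and 23. Deviations from the group mean of same-numbered 80S and untranslated libraries correlated at 0.0864 (replicate 1) and 0.530 (replicate 2). Those of 80S replicate 3 and untranslated replicate 1, which differ in number, correlated at 0.551. With 2 untranslated libraries their deviations mirror each other, so these values do not settle a pairing, and the labels name no shared batch: the libraries share only a number. Depth is unknown, so no RNA can be given a counting error.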
